A study of Mus musculus with 9 samples.

Results

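The genes described here encode, in the nucleus, the subunits and assembly factors of mitochondrial oxidative phosphorylation (OXPHOS). Members were taken by gene symbol, as all genes whose symbol starts with Nduf, Sdh and then a, b, c or d, Uqcr, Cox and then a digit, or Atp5. This rule found 101 of the 22180 genes measured, among them 99 protein-coding genes and 2 annotated pseudogenes, and another 10 coding genes with such a symbol had no probe set with a single gene symbol. For the 10 members with more than 1 probe set, the brightest probe set by its mean over the 9 arrays was kept, so the levels given here were part of the choice and are a description. Differences between groups did not enter the rule.

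Oxidative phosphorylation makes most of the ATP of many cells. Complexes I and II pass electrons from NADH and succinate to ubiquinone, complex III passes them on to cytochrome c, complex IV passes them to oxygen, and complex V, the ATP synthase, makes ATP from the proton gradient that complexes I, III and IV build. A few subunits are encoded in mitochondrial DNA, and the others come from nuclear genes and are imported, so each complex except complex II needs products of both genomes. Assembly factors are needed to build the complexes but are not part of the finished enzymes.

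The arrays measured RNA of mouse embryonic stem cells of the NG4 line, which carries a GFP reporter of Nanog in a 129/Sv background and was grown on gelatin with LIF. All cells received a pLKO.1 lentivirus and puromycin at 2 μg/mL for 72 h. The shPhf5a group carried a hairpin against Phf5a, which encodes a PHD-finger protein of the SF3b splicing factor, the shPaf1 group a hairpin against Paf1, which encodes a subunit of the PAF1 complex of transcription elongation, and the shControl group a control hairpin. Each group had 3 arrays and 1 hairpin, so effects of a hairpin on other transcripts cannot be told apart from those of its target. The labels do not say that replicates were separate cultures, and p-values therefore measure a spread between arrays that may be technical.

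The values were on a log2 scale, with array medians between 6.22 and 6.32. Phf5a was at 10.40, 11.10 and 10.60 in shPhf5a and at 11.84, 12.09 and 11.89 in shControl, a difference of -1.24 ± 0.16 (SE). Paf1 was at 8.68, 8.72 and 8.69 in shPaf1 and at 10.09, 10.11 and 10.05 in shControl, a difference of -1.39 ± 0.08. Each hairpin also came with a smaller fall of the other target, with Phf5a at -0.57 in shPaf1 and Paf1 at -0.25 in shPhf5a. The array of shPhf5a replicate 2 lay nearer to shControl than replicates 1 and 3 did, in Phf5a and in many OXPHOS genes, and counts without it are given below. Pou5f1, Sox2 and Nanog, which define embryonic stem cells, had means of 9.31, 11.6 and 12.1 over all arrays, above the median of all genes. Of 8 embryonic stem cell markers, these among them, 6 fell in shPhf5a and 6 in shPaf1. Sox2 (0.11 in shPhf5a and -0.06 in shPaf1) and Dppa5a (-0.08 and -0.17) were called in neither. Dppa5a averaged 6.04, below the median of all genes. The mean level of these markers was 10.17 to 10.44 on the shPhf5a arrays, 10.19 to 10.21 on the shPaf1 arrays and 10.65 to 10.71 on the shControl arrays. Of 8 fibroblast or feeder markers, Pdgfra rose in shPhf5a (0.58), and Pdgfra (0.96), Dcn (0.57) and Col1a1 (0.22) rose in shPaf1. Their mean level was 5.93 to 5.99 in shPhf5a, 6.15 to 6.24 in shPaf1 and 5.90 to 5.93 in shControl, below the median of all genes. Of 4 macrophage and blood markers measured, Cd68 alone was called, at -0.42 in shPhf5a and 0.44 in shPaf1, and Ptprc, Csf1r and Adgre1 were below the median level; the list averaged 6.41 to 6.58, 6.74 to 6.90 and 6.64 to 6.70 in shPhf5a, shPaf1 and shControl. The part of these marker genes in the OXPHOS differences was not tested. In RNA of whole cultures, fewer cells of a type and less RNA per cell cannot be told apart.

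The first comparison asked how OXPHOS transcripts differed between Phf5a-depleted and control cells. In shPhf5a 65 of 101 members were lower than in shControl and 1, Cox6b2, was higher, at an adjusted p under 0.05 (limma, adjusted over all 22180 genes). Of all genes tested, 20.7% were lower and 16.7% higher in this comparison. Among genes above the median level of 6.70, which hold 91 of the members, 63 members (69.2%) were lower and 1 was higher, against 35.2% and 26.9% of all such genes. The median difference of the members was -0.32, against -0.03 over all genes, and single members ranged from -1.33 to 0.64. The members that fell kept between 39.6% and 88.9% of their shControl level, and 2 of them, Cox7a1 and Atp5e, fell at least 2-fold, a size reached by 1.22% of all genes.

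The second comparison set Paf1-depleted cells against the same controls. In shPaf1 55 of 101 members were lower than in shControl and 2, Cox6b2 and Cox10, were higher, while 17.8% of all genes were lower and 18% higher. Among genes above the median level, 54 of 91 members (59.3%) were lower and 2 were higher, against 30.7% and 29.2% of all such genes. The median difference of the members was -0.29, against -0.01 over all genes, with a range from -1.28 to 0.35. Those that fell kept between 41.1% and 87.5% of their shControl level, and Sdhaf4, Ndufa7 and Cox7a1 fell at least 2-fold, as 0.978% of all genes did.

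The falls were seen on each array of both knockdowns. On the 3 shPhf5a arrays 85, 75 and 85 members lay below the lowest shControl array, and the median deviation from the shControl mean was -0.39, -0.22 and -0.36. On the 3 shPaf1 arrays 72, 79 and 79 members lay below all shControl arrays, with median deviations of -0.24, -0.30 and -0.32. For the 91 members above the median level, these counts were 81, 71 and 81 in shPhf5a and 70, 76 and 76 in shPaf1. Among all 11090 genes above that level, 5776, 4900 and 5590 lay below all shControl arrays in shPhf5a, and 5110, 4989 and 5115 in shPaf1. On the shControl arrays the median deviation was 0.00, 0.03 and -0.03. The 3 arrays of shPhf5a did not overlap those of shControl for 69 members that were lower and 3 that were higher, and in shPaf1 for 68 that were lower and 4 that were higher. Of all genes, 45.8% and 48.3% separated in this way in either direction. Among the 91 members above the median level, 67 were lower and 2 higher in shPhf5a, and 67 and 3 in shPaf1. Among all 11090 genes above that level, 4383 were lower and 3400 higher in shPhf5a, and 4345 and 3949 in shPaf1. The members thus differed from these genes mainly in direction. Without shPhf5a replicate 2, 67 members were lower and 3 higher in shPhf5a, and the median was -0.36.

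**Figure D1:**
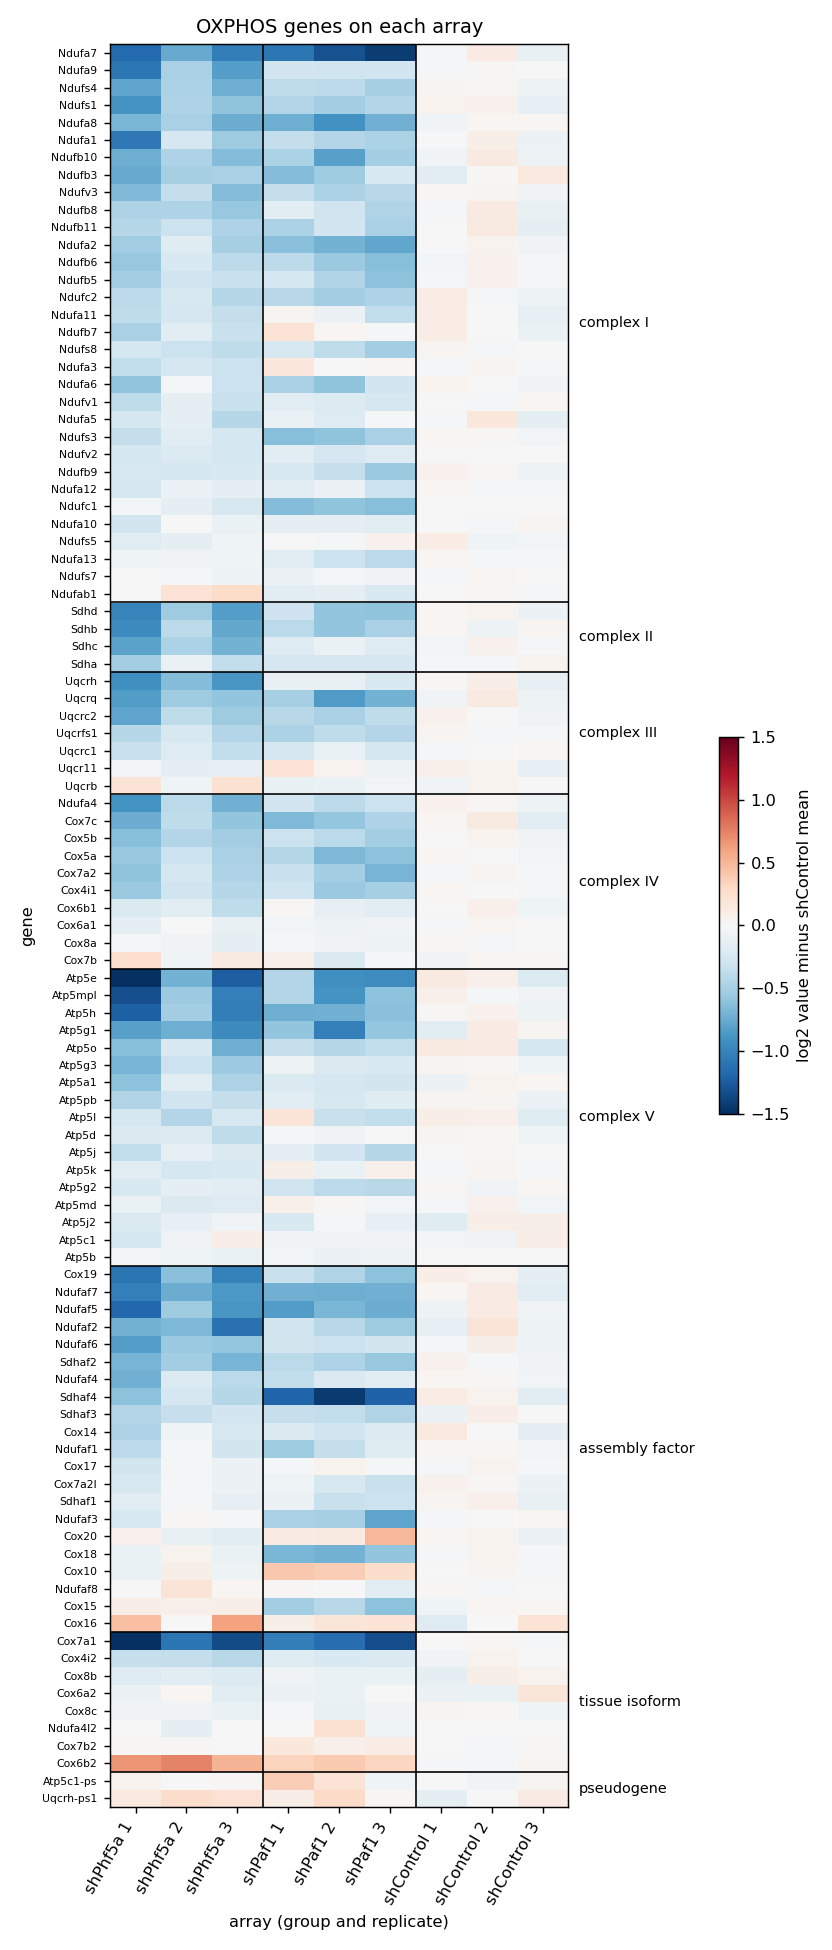
Each row is 1 of the 101 OXPHOS genes and each column 1 array, grouped by complex; colour gives the log2 value minus the mean of the 3 shControl arrays, with blue lower and red higher. Most genes are blue on all 6 knockdown arrays, the shPhf5a replicate 2 column is paler than its neighbours, and Cox6b2, near the bottom, is red on all 6 of them.

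The 2 knockdowns share their controls, so their calls are given side by side. Of the 101 members 47 were lower in both knockdowns, where 12% of all genes were, and Cox6b2 was higher in both, as 10.6% of all genes were. Another 18 were lower in shPhf5a and not called in shPaf1, 8 were lower in shPaf1 and not called in shPhf5a, Cox10 was higher in shPaf1 and not called in shPhf5a, and 26 were called in neither. No member was called in opposite directions, which 2.07% of all genes were. A call in 1 knockdown and not in the other is no test of a difference, and the direct comparison of the knockdowns is given after the complexes.

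**Figure D2:**
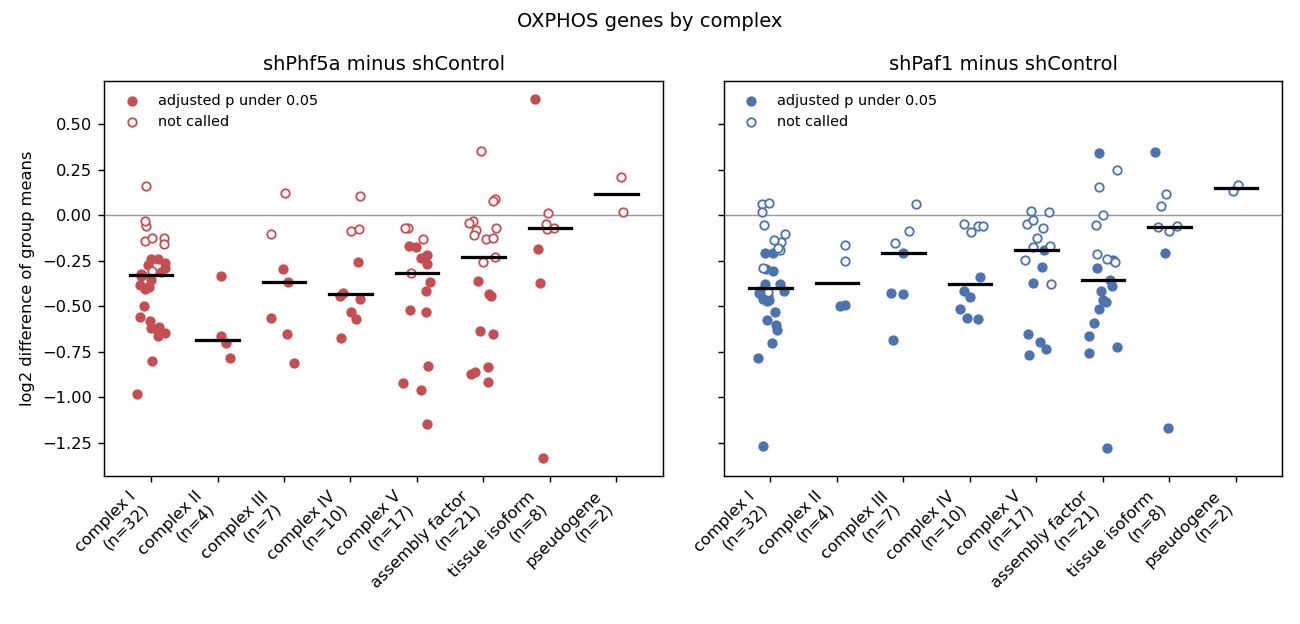
Each point is 1 OXPHOS gene, placed by its log2 difference of group means from shControl, in shPhf5a (left) and shPaf1 (right); filled points have an adjusted p under 0.05 and black bars are class medians. In complexes I to V the class medians lie below 0 in both panels, from -0.68 (complex II, shPhf5a) to -0.19 (complex V, shPaf1), while the medians of tissue isoforms are -0.07 and -0.06, with Cox7a1, Cox4i2 and, in shPhf5a, Cox8b called lower and Cox6b2 higher.

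Complex I, the NADH dehydrogenase, had 32 members, of which 24 were lower in shPhf5a and 21 in shPaf1, with medians of -0.33 and -0.40 and no member higher. For complexes I, II, III and IV the shares called lower were 75%, 100%, 71.4% and 70% in shPhf5a. In shPaf1 they were 65.6%, 50%, 57.1% and 60%. Of all genes above the median level, 35.2% were lower in shPhf5a and 30.7% in shPaf1. Of the 6 measured core subunits, most of which carry the flavin or iron-sulfur clusters, 5 fell in each knockdown. The exception was Ndufs7, the complex I member with the highest signal, at 12.62, 12.59 and 12.54 in shPhf5a, 12.53, 12.59 and 12.57 in shPaf1 and 12.59, 12.64 and 12.61 in shControl. These arrays overlapped between all groups, and the differences of -0.03 and -0.05 did not pass the test. Of the 26 accessory subunits, which surround the core, 19 fell in shPhf5a and 16 in shPaf1.

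The accessory subunit Ndufa7 fell most in complex I in both knockdowns. It was at 9.14, 9.55 and 9.27 in shPhf5a and at 9.22, 8.998 and 8.89 in shPaf1, against 10.29, 10.43 and 10.20 in shControl. All 6 knockdown arrays lay below all 3 control arrays. The difference from shControl was -0.98 ± 0.12 (SE) in shPhf5a (adjusted p = 0.000143) and -1.27 ± 0.12 in shPaf1 (adjusted p = 2.5e-05), and the knockdowns did not differ from each other past the threshold (0.29, adjusted p = 0.0982).

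Ndufa8, an accessory subunit of the intermembrane space side, was at 10.01, 10.20 and 9.95 in shPhf5a, 9.95, 9.78 and 9.97 in shPaf1 and 10.63, 10.72 and 10.71 in shControl. Neither knockdown overlapped the controls, with differences of -0.63 in shPhf5a and -0.79 in shPaf1. Ndufa9, an accessory subunit next to the site where ubiquinone is reduced, differed between the hairpins. It was at 10.20, 10.80 and 10.45 in shPhf5a, 11.00, 10.99 and 11.00 in shPaf1 and 11.26, 11.30 and 11.29 in shControl. The shPhf5a arrays lay below all shPaf1 arrays, which lay below all controls, while the difference passed the test in shPhf5a (-0.80 ± 0.12, adjusted p = 0.000544) and not in shPaf1 (-0.29 ± 0.12, adjusted p = 0.0929). In shPaf1 it passed when shPhf5a replicate 1 or 2, which enter the shared estimate of the spread, was left out.

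Ndufc1, a small membrane subunit, showed the opposite order. It was at 8.81, 8.71 and 8.61 in shPhf5a, 8.19, 8.25 and 8.21 in shPaf1 and 8.85, 8.86 and 8.84 in shControl. It fell in shPaf1 (-0.63, adjusted p = 1.95e-05) and did not pass the test in shPhf5a (-0.14, adjusted p = 0.0752), where it passed without shPhf5a replicate 1. The members with the highest differences in complex I were Ndufab1, the mitochondrial acyl carrier protein, in shPhf5a (0.16) and Ndufb7 in shPaf1 (0.07), and neither passed the test. Ndufb7 did fall in shPhf5a, by 0.33 on the log2 scale, a call that was lost without shPhf5a replicate 1 or 3 or shControl replicate 1 or 2.

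Complex II, succinate dehydrogenase, has 4 subunits, all encoded in the nucleus, and also works in the tricarboxylic acid cycle. All 4 fell in shPhf5a, with the lowest median of any complex (-0.68), and 2, Sdhb and Sdhd, fell in shPaf1 (median of all 4 -0.37). Sdhd, a membrane anchor, was at 9.53, 10 and 9.71 in shPhf5a, 10.23, 9.94 and 9.93 in shPaf1 and 10.56, 10.58 and 10.45 in shControl. Both knockdowns were apart from the controls, with differences of -0.78 ± 0.12 in shPhf5a (adjusted p = 0.000599) and -0.50 ± 0.12 in shPaf1 (adjusted p = 0.00804).

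Sdhb, the iron-sulfur subunit, was at 8.44, 9.004 and 8.63 in shPhf5a, 8.99, 8.80 and 8.90 in shPaf1 and 9.42, 9.32 and 9.44 in shControl, which gave differences of -0.70 and -0.49. Sdhc, the other anchor, was at 9.74, 10.07 and 9.84 in shPhf5a, 10.36, 10.45 and 10.35 in shPaf1 and 10.52, 10.62 and 10.52 in shControl. No array of either knockdown reached the controls, yet Sdhc fell by 0.67 on the log2 scale in shPhf5a and its -0.16 in shPaf1 did not pass the test (adjusted p = 0.156), as it did without shPhf5a replicate 2. Sdha, the flavin subunit that oxidises succinate, was at 10.34, 10.76 and 10.49 in shPhf5a, 10.61, 10.61 and 10.61 in shPaf1 and 10.83, 10.85 and 10.91 in shControl. It had the smallest difference of the complex in shPhf5a (-0.33 ± 0.09, adjusted p = 0.0164), lost its call there without shPhf5a replicate 3 or shControl replicate 3 (largest adjusted p = 0.0588), and did not pass in shPaf1 (-0.25 ± 0.09, adjusted p = 0.058).

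Complex III, the cytochrome bc1 complex, had 7 members, of which 5 were lower in shPhf5a and 4 in shPaf1, with medians of -0.36 and -0.21. Its subunit Cyc1 lies outside the symbol rule and is given with the other gene groups below. Uqcrh, the hinge protein at which cytochrome c docks, was at 8.41, 8.69 and 8.46 in shPhf5a, 9.22, 9.23 and 9.10 in shPaf1 and 9.36, 9.44 and 9.21 in shControl. The shPhf5a arrays stood apart from all others, and the shPaf1 arrays overlapped the controls. Uqcrh fell in shPhf5a (-0.81 ± 0.09, adjusted p = 7.16e-05), did not pass in shPaf1 (-0.15 ± 0.09, adjusted p = 0.22), and was lower in shPhf5a than in shPaf1 by the direct test (-0.66 ± 0.09, adjusted p = 0.000323).

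Uqcrq, a small subunit also called ubiquinone-binding protein QP-C, was at 7.81, 8.11 and 8.05 in shPhf5a, 8.15, 7.80 and 7.94 in shPaf1 and 8.59, 8.78 and 8.57 in shControl. Both knockdowns lay below the controls to a like extent, at -0.66 and -0.68. Uqcrb, the complex III member with the highest signal, was not called in either knockdown (0.12 and -0.08), except as higher in shPhf5a without replicate 2, nor was Uqcr11 (-0.10 and 0.06).

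Complex IV, cytochrome c oxidase, had 10 members of the ubiquitous form, of which 7 were lower in shPhf5a and 6 in shPaf1, with medians of -0.44 and -0.38. Ndufa4, first described with complex I and now counted with complex IV, was at 10.24, 10.73 and 10.42 in shPhf5a, 10.85, 10.74 and 10.81 in shPaf1 and 11.20, 11.15 and 11.06 in shControl. All knockdown arrays were below the controls, with differences of -0.67 in shPhf5a and -0.34 in shPaf1. The call in shPaf1 (adjusted p = 0.0339) was lost without any 1 of the shPaf1 or shControl arrays. Cox5a, a subunit on the matrix side, had the largest fall of the complex in shPaf1, at 9.77, 10.01 and 9.84 in shPhf5a, 9.91, 9.65 and 9.72 in shPaf1 and 10.37, 10.34 and 10.29 in shControl.

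Cox6a1 and Cox8a, both with signals over 12 on each array, were called in neither knockdown, at -0.09 and -0.07 in shPhf5a and at -0.06 and -0.05 in shPaf1. Cox7b was also not called, at 0.11 in shPhf5a and -0.06 in shPaf1. Its 2 probe sets did not show the same thing. The kept one averaged 11.98 over the 9 arrays, while the dimmer one averaged 7.57 and fell by 0.56 on the log2 scale in each knockdown. Among the 10 members with several probe sets, tested over all probe sets, 5 others had 1 probe set called and the other not in at least 1 knockdown. For Ndufa12 the kept probe set was not called and the other fell by 0.22 on the log2 scale in shPhf5a and by 1.09 in shPaf1, and for Atp5d, in shPaf1, the kept probe set was at -0.03 and the other fell by 0.61. The kept probe sets of Atp5h in both knockdowns, and of Atp5g2 and Ndufa11 in shPhf5a, were called and their other probe sets were not. Atp5e, Cox5b, Ndufa8 and Sdhaf1 had the same calls on both probe sets. No member had probe sets called in opposite directions. Many OXPHOS genes have processed pseudogenes, and whether a probe set also reports such copies was not tested.

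Complex V, the ATP synthase, had 17 members, of which 13 were lower in shPhf5a and 7 in shPaf1, with medians of -0.32 and -0.19. These shares were 76.5% and 41.2%, against 35.2% and 30.7% of all genes above the median level. The share in shPaf1 was thus nearer to that background. Of the 5 subunits of the F1 part, 3 fell in shPhf5a and 1, Atp5e, fell in shPaf1, by the kept probe sets. The other probe set of Atp5d fell in shPaf1 too. Of the 12 in the membrane sector and the peripheral stalk, 10 fell in shPhf5a and 6 in shPaf1. Atp5e, the epsilon subunit of F1, was at 8.12, 8.92 and 8.39 in shPhf5a, 9.18, 8.70 and 8.69 in shPaf1 and 9.76, 9.70 and 9.42 in shControl. Each knockdown array was below each control, although the shPhf5a replicates had an SD of 0.41. Atp5e differed by -1.15 ± 0.20 in shPhf5a (2.21-fold lower, adjusted p = 0.00137) and by -0.77 ± 0.20 in shPaf1 (adjusted p = 0.0131), and its call in shPaf1 was lost without shPaf1 replicate 2 or 3 or shControl replicate 1 (largest adjusted p = 0.0553).

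Atp5mpl, a small proteolipid of the membrane sector, was at 8.35, 9.12 and 8.65 in shPhf5a, 9.23, 8.77 and 9.05 in shPaf1 and 9.74, 9.66 and 9.61 in shControl. Atp5h, the stalk subunit d, was at 10.90, 11.62 and 11.09 in shPhf5a, 11.39, 11.40 and 11.50 in shPaf1 and 12.15, 12.19 and 12.05 in shControl. For both genes shPhf5a replicate 2 was the nearest of its group to the controls and still below them, and the falls were 0.96 and 0.93 on the log2 scale in shPhf5a and 0.65 and 0.70 in shPaf1. Atp5mpl was no longer called in shPaf1 without shPaf1 replicate 2 (-0.53) or shControl replicate 1 (-0.62). Atp5g1, Atp5g2 and Atp5g3 encode the same mature c-ring protein. Atp5g1, whose mean was below the median level, fell in both knockdowns (-0.83 and -0.74), as did Atp5g2 (-0.18 and -0.37), while Atp5g3 fell in shPhf5a (-0.52) and was not called in shPaf1 (-0.17, adjusted p = 0.191). Atp5b, the catalytic beta subunit and the member with the highest signal of all, at 13.20, 13.18 and 13.14 in shPhf5a, 13.20, 13.16 and 13.17 in shPaf1 and 13.24, 13.25 and 13.26 in shControl, was lower on each knockdown array by a difference of -0.07 that did not pass the test in either.

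The promoters of 7 members are shown as examples of the expression patterns above, and not of how often the motifs occur. Atp5h and Sdhd fell in both knockdowns, Sdha, from complex II too, fell in shPhf5a, and Atp5e had the largest fall of complex V. Uqcrh differed between knockdowns, and Cox7a1 and Cox6b2 are the tissue isoforms that moved most in either direction. Each line gives the 150 bases before the annotated start of transcription, from RefSeq (GRCm38.p6), read 5′ to 3′ along the gene's strand. Capitals mark matches, on either strand, to the NRF1 motif, searched as GCGC, any base and TGCGC, or to the ETS motif CCGGAAG, which GABPA and other ETS factors bind.
Atp5h (chr11:115419920-115420069, minus strand): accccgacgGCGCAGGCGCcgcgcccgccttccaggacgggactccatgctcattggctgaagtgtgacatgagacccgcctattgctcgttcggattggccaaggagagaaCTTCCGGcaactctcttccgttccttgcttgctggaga
Sdhd (chr9:50603850-50603999, minus strand): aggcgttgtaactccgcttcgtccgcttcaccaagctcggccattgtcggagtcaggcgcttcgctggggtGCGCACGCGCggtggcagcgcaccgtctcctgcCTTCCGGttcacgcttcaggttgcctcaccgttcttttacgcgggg
Sdha (chr13:74350241-74350390, minus strand): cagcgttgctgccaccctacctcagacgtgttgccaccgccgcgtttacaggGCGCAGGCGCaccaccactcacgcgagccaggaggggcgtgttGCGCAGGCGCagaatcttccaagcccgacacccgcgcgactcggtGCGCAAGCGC
Atp5e (chr2:174464102-174464251, minus strand): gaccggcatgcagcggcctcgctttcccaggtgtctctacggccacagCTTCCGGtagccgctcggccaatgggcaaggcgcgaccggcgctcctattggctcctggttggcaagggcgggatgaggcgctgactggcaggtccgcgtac
Uqcrh (chr4:116075071-116075220, minus strand): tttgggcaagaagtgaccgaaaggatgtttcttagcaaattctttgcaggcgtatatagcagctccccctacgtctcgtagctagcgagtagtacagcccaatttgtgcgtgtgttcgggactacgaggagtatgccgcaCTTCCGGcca
Cox7a1 (chr7:30184021-30184170, plus strand): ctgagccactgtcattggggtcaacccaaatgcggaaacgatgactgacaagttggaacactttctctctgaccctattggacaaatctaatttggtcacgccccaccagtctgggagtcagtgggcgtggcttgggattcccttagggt
Cox6b2 (chr7:4753095-4753244, minus strand): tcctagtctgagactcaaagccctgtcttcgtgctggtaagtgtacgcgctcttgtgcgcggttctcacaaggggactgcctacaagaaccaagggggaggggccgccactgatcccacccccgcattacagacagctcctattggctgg

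In these stretches Sdha holds 3 NRF1 matches, whose first bases lie 98, 55 and 10 bases before the start. Atp5h and Sdhd hold an NRF1 match and an ETS match each, Atp5e and Uqcrh an ETS match each, and Cox7a1 and Cox6b2 none of either. Ndufa7, Sdhb, Cox19, Sdhaf4, Ndufaf5 and Ndufaf7, which fell in both knockdowns and are not printed, held neither motif in the same stretch. Over windows from 250 bases before to 50 after the start, which RefSeq gave for 82 of the 101 members, the NRF1 letters were found in 23.2% of members and in 5.19% of all 27025 genes with a window. The ETS letters were found in 32.9% of members and 9.93% of all genes. The YY1 letters AAGATGG were in 15.9% of members and 7.28% of all genes, and the estrogen-related receptor letters AAGGTCA in 7.32% and 5.38%. CCAAT was in 40.2% of members and 41.1% of all genes, and TATAAA in 12.2% and 15.7%, all on either strand. Among members called lower in either knockdown 26.2% held the NRF1 letters and 29.5% the ETS letters, and among those called in neither 15.8% and 42.1% did. A match describes letters and is not a bound site.

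Of the 21 assembly factors, 9 were lower in shPhf5a, and 13 were lower and 1 higher in shPaf1, with medians of -0.23 and -0.36. All 21 were above the median level, and their shares called lower were 42.9% in shPhf5a and 61.9% in shPaf1, against 35.2% and 30.7% of all genes above that level, so the share in shPhf5a was near that background. Of 8 factors for complex I, 5 fell in shPhf5a and 6 in shPaf1. Ndufaf7, a mitochondrial methyltransferase, was at 7.02, 7.30 and 7.18 in shPhf5a, 7.32, 7.31 and 7.31 in shPaf1 and 8.07, 8.17 and 7.88 in shControl, with differences of -0.88 and -0.73. Ndufaf5, which modifies Ndufs7, was at 6.28, 6.92 and 6.58 in shPhf5a, 6.62, 6.78 and 6.71 in shPaf1 and 7.38, 7.58 and 7.41 in shControl, with differences of -0.86 and -0.76. Both genes were below the controls on all 6 arrays. Ndufaf3 was called in shPaf1 (-0.59, adjusted p = 0.000552) and not in shPhf5a (-0.08, adjusted p = 0.545), and Ndufaf2 fell more in shPhf5a than in shPaf1 (-0.84 and -0.42, difference of the knockdowns -0.42, adjusted p = 0.0321). The call of Ndufaf2 in shPaf1 was lost without shPaf1 replicate 2 or 3 or shControl replicate 2.

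All 4 factors for complex II fell in shPaf1 and 3 of them in shPhf5a. Sdhaf4, which binds Sdha before Sdhb joins it, had the largest fall of all members in shPaf1. It was at 8.003, 8.36 and 8.18 in shPhf5a, 7.42, 7.18 and 7.40 in shPaf1 and 8.73, 8.67 and 8.45 in shControl. The 3 groups did not overlap and lay in the order shPaf1, shPhf5a, shControl. Sdhaf4 differed from shControl by -0.43 ± 0.11 in shPhf5a (adjusted p = 0.00982) and by -1.28 ± 0.11 in shPaf1 (2.43-fold lower, adjusted p = 1.53e-05), and the knockdowns differed by 0.85 ± 0.11 (adjusted p = 0.000309).

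The 8 factors for complex IV did not move as 1 group. In shPhf5a only Cox19, a copper-handling protein of the intermembrane space, was called, and in shPaf1 3 fell and Cox10 rose. The shares called lower were 12.5% and 37.5%, against 35.2% and 30.7% of all genes above the median level. Cox19 was at 7.38, 7.84 and 7.46 in shPhf5a, 8.14, 8.03 and 7.86 in shPaf1 and 8.57, 8.53 and 8.33 in shControl, with differences of -0.91 and -0.47, the second no longer called without shPaf1 replicate 3 or shControl replicate 1 or 2. Cox18, which inserts a part of Cox2 into the membrane, was at 10.97, 11.12 and 10.97 in shPhf5a, 10.37, 10.36 and 10.47 in shPaf1 and 11.04, 11.11 and 11.04 in shControl. The shPaf1 arrays stood below all others, at -0.66 ± 0.06 (adjusted p = 1.94e-05), while shPhf5a overlapped the controls (-0.04, adjusted p = 0.616).

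Cox10 and Cox15 act one after the other in making heme a, the cofactor of complex IV, and went different ways in shPaf1. Cox10 was at 9.23, 9.41 and 9.25 in shPhf5a, 9.73, 9.70 and 9.59 in shPaf1 and 9.32, 9.38 and 9.30 in shControl, and rose in shPaf1 by 0.34 ± 0.06 (adjusted p = 0.00176). Cox15 was at 10.05, 10.02 and 10.04 in shPhf5a, 9.43, 9.54 and 9.34 in shPaf1 and 9.89, 9.98 and 9.98 in shControl, and fell in shPaf1 by 0.51 on the log2 scale (adjusted p = 9.24e-05). For both genes the shPaf1 arrays lay apart from the other 6. Neither was called in shPhf5a (-0.03 and 0.09). Cox16 had the highest difference of the factors in shPhf5a (0.35 ± 0.15), which did not pass the test (adjusted p = 0.0953) and did so without shPhf5a replicate 2.

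**Figure D3:**
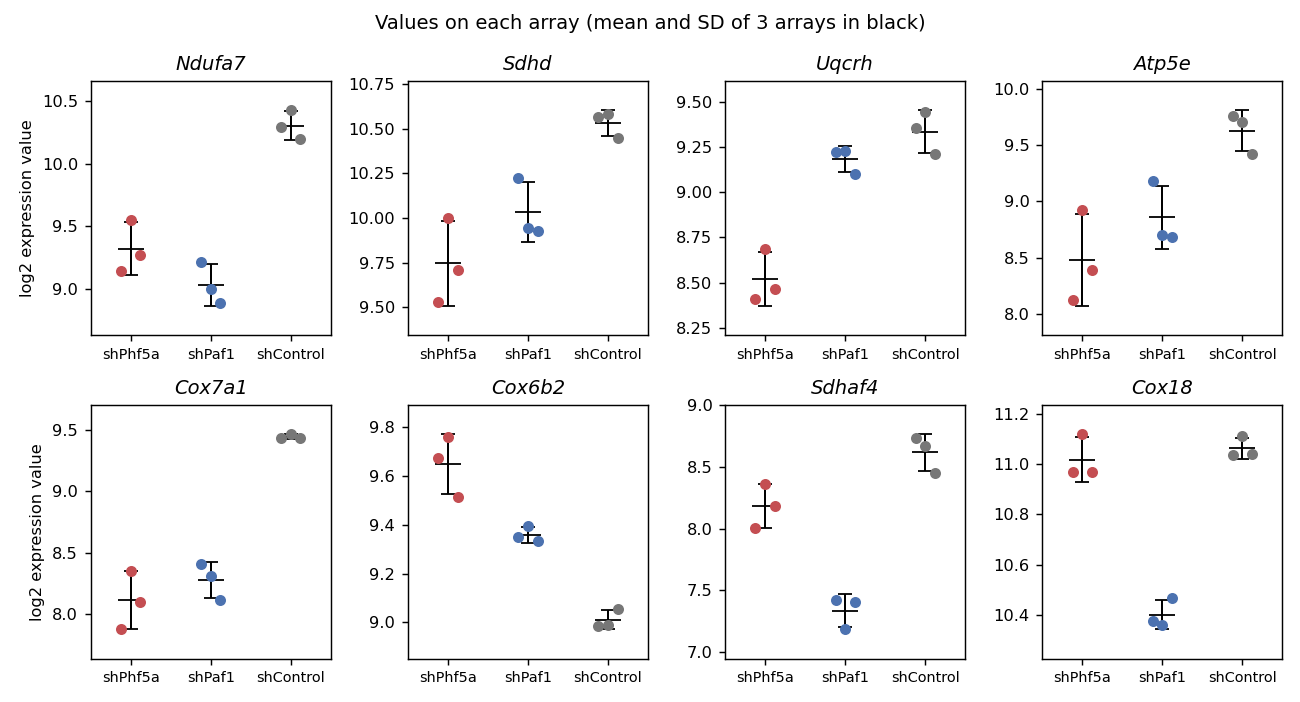
Log2 expression values of 8 OXPHOS genes on each array, with shPhf5a in red, shPaf1 in blue and shControl in grey, and the mean and SD of 3 arrays in black; axes do not start at 0. Ndufa7, Sdhd, Atp5e and Cox7a1 lie below shControl in both knockdowns, Uqcrh is apart in shPhf5a and Cox18 in shPaf1, Sdhaf4 is lowest in shPaf1, and Cox6b2 is above shControl on all 6 knockdown arrays.

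The 8 tissue isoforms replace ubiquitous subunits in certain tissues, and held both the largest fall and the largest rise among the members. Cox7a1, the heart and skeletal muscle form of subunit VIIa, was at 7.88, 8.35 and 8.10 in shPhf5a, 8.40, 8.31 and 8.12 in shPaf1 and 9.44, 9.47 and 9.43 in shControl. The highest knockdown array was more than 1 log2 unit below the lowest control. Cox7a1 fell 2.52-fold in shPhf5a (-1.33 ± 0.11, adjusted p = 2.18e-05) and 2.25-fold in shPaf1 (-1.17 ± 0.11, adjusted p = 3.24e-05). Its ubiquitous partner Cox7a2 fell less, by 0.44 and 0.51 on the log2 scale.

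Cox6b2, the testis form of subunit VIb, was at 9.67, 9.76 and 9.52 in shPhf5a, 9.35, 9.40 and 9.33 in shPaf1 and 8.99, 8.99 and 9.06 in shControl. The 3 groups did not overlap. It rose by 0.64 ± 0.06 in shPhf5a (adjusted p = 5.52e-05) and by 0.35 ± 0.06 in shPaf1 (adjusted p = 0.00169), and was higher in shPhf5a than in shPaf1 (0.29, adjusted p = 0.00685). The ubiquitous partner Cox6b1 fell in shPhf5a (-0.26, adjusted p = 0.0185) and was not called in shPaf1 (-0.09, adjusted p = 0.402), and its call in shPhf5a was lost without shPhf5a replicate 3 or shControl replicate 2.

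Cox4i2, the lung form of subunit IV, fell in both knockdowns (-0.37 and -0.21), as did its partner Cox4i1 (-0.43 and -0.45). Cox8b, a muscle form, fell in shPhf5a (-0.19, adjusted p = 0.0382) at a level below the median of all genes, and did not without shPhf5a replicate 2. The muscle form Cox6a2, the testis forms Cox7b2 and Cox8c, and Ndufa4l2, a form known from hypoxia, were all below the median level and called in neither knockdown, with differences between -0.07 and 0.12. The pseudogenes Atp5c1-ps and Uqcrh-ps1 were not called either (0.02 and 0.21 in shPhf5a, 0.17 and 0.14 in shPaf1).

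Markers of the tissues in which these isoforms are known were measured beside them. Of 6 germ cell markers, 3 rose in shPhf5a (Ddx4 by 0.78, Dazl by 1.52 and Mael by 1.23) and Tnp1 fell by 0.17 on the log2 scale, while in shPaf1 Dazl alone was called (0.61). The mean level of the germ cell list was 7.82 to 7.92 on the shPhf5a arrays, 7.38 to 7.41 on the shPaf1 arrays and 7.30 to 7.36 on the shControl arrays, and the spermatid genes Prm1, Tnp1 and Acrv1 averaged under the median of all genes. Of 7 muscle markers, Ckm rose in shPhf5a (0.80) and Acta1 in shPaf1 (0.50), with mean list levels of 6.25 to 6.48, 6.38 to 6.43 and 6.33 to 6.49 in shPhf5a, shPaf1 and shControl. The part of these cell type genes in the values of Cox6b2 and Cox7a1 was not tested.

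The direct comparison of the hairpins asked where the OXPHOS genes differed between Phf5a and Paf1 depletion. In shPhf5a 11 members were higher and 17 lower than in shPaf1, where 12.7% of all genes were higher and 16.3% lower, and the median difference was -0.08. These shares, 10.9% and 16.8%, were near those of all genes. Among genes above the median level, 12.1% of members were higher and 18.7% lower. These were below the 20.7% and 27.4% of all such genes. The members that were higher in shPhf5a by most were Sdhaf4 (0.85), Cox18 (0.62), Cox15 (0.60), Ndufaf3 (0.51) and Ndufc1 (0.49). Of the 21 assembly factors, 4 were higher and 5 lower in shPhf5a by this test. Those that were lower by most were Uqcrh (-0.66), Ndufa9 (-0.51), Sdhc (-0.50), Cox19 (-0.45) and Ndufaf2 (-0.42). The last 2 calls were lost when 1 array was left out, Cox19 without shPhf5a replicate 1 or 3 or shPaf1 replicate 1 or 2, and Ndufaf2 without shPhf5a replicate 3 or shPaf1 replicate 1 or 2. Of the 18 members called lower in shPhf5a and not in shPaf1, 9 were lower in shPhf5a by this direct test, and of the 8 with the reverse pattern 5 were higher. Both patterns were set by calls on the same arrays, which favours these directions, so the counts are a description only. The number that were lower depended on 1 array: it was 30 without shPhf5a replicate 2, 9 without shPhf5a replicate 3 and 9 without shPaf1 replicate 1.

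The size of the change did not follow the signal in a simple way. The array signal depends on the probes as well as on RNA, so it does not rank genes by abundance. Whether values close to the ends of the range respond less was not tested. The 9 members with a mean over 12 had medians of -0.09 in shPhf5a and -0.07 in shPaf1, with 4 and 2 of them lower. The 34 members between 8 and 10 had medians of -0.44 and -0.43, with 23 and 22 lower, and the 32 members between 10 and 12 had medians of -0.33 and -0.32, with 25 and 21 lower. The 10 members below the median of all genes had medians of -0.07 and -0.02. Across the 101 genes, which share arrays and are not independent, Spearman's rho between mean level and difference was 0.02 in shPhf5a and 0.01 in shPaf1.

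**Figure D4:**
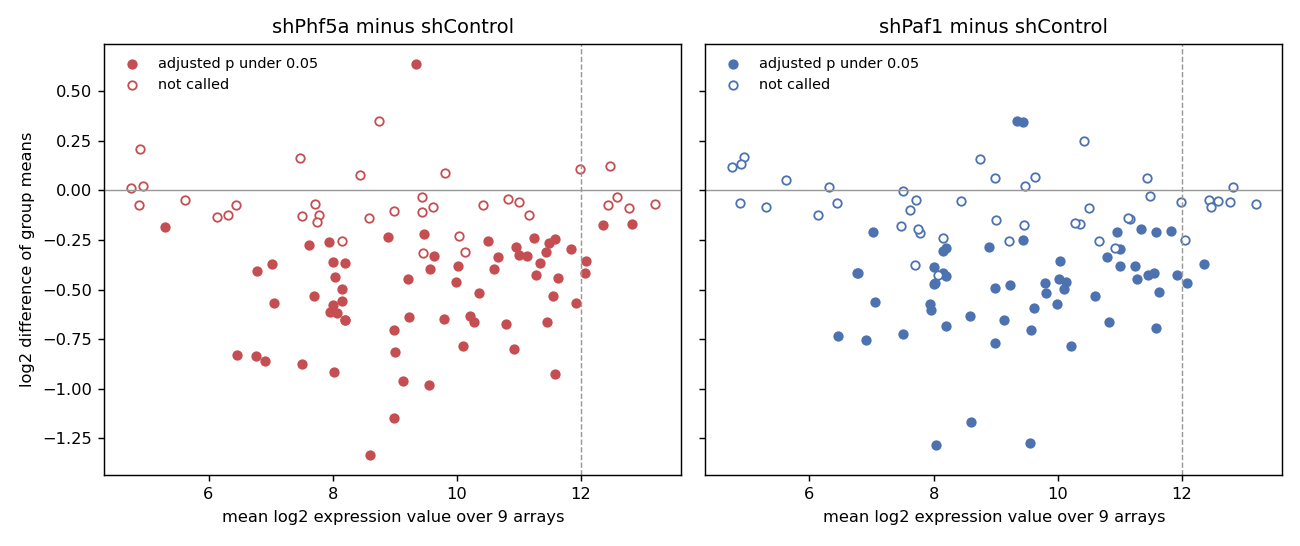
Each point is 1 OXPHOS gene, placed by its mean log2 expression value over 9 arrays (horizontal) and its log2 difference from shControl (vertical) in shPhf5a (left) and shPaf1 (right); filled points have an adjusted p under 0.05 and the dashed line marks a level of 12. Differences beyond -0.50 lie at levels from 6 to 12. The 9 members right of the line range from -0.42 to 0.12 in shPhf5a and from -0.47 to 0.02 in shPaf1.

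Other gene groups measured on the same arrays were set beside the members. Of 36 other assembly factors and carriers, which the symbol rule leaves out, 28 were lower in shPhf5a, and 26 were lower and 2 higher in shPaf1. The list also holds Cyc1, a subunit of complex III, called lower in both (-0.33 and -0.24). Among the 36 genes, Ecsit, which acts in complex I assembly, was at -0.89 in shPhf5a and -0.55 in shPaf1. Coa3, which acts in early complex IV assembly, was at -1.13 in shPhf5a and -0.63 in shPaf1, Uqcc2, for complex III, at -0.68 and -1.15, and Cmc2 at -0.94 and -0.99, all called. Pet100, for complex IV, fell in shPhf5a (-0.46) and rose in shPaf1 (0.47).

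Falls were also common in groups outside OXPHOS. Mitochondrial ribosomal proteins were lower for 63 of 71 genes in shPhf5a and 58 in shPaf1, with medians of -0.51 and -0.50. Proteasome subunits were lower for 25 of 39 genes in shPhf5a and 26 in shPaf1, with medians of -0.40 and -0.34. Cytoplasmic ribosomal proteins were lower for 38 of 74 genes in shPhf5a and 55 in shPaf1, with medians of -0.21 and -0.34.

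The OXPHOS subunits encoded in mitochondrial DNA did not fall with the nuclear ones in shPhf5a. Of 10 such genes 4 (CYTB, ND2, ND4L and ND5) were higher in shPhf5a, by 0.16 to 0.21, and none was lower, while in shPaf1 3 (COX3, ND3 and ND6) were lower and none higher. The arrays of ND2 in shPhf5a overlapped those of shControl. All 10 were above the median level, where 26.9% of genes were higher in shPhf5a and 30.7% lower in shPaf1. The 30% called lower in shPaf1 was thus near that background, and 40% were called higher in shPhf5a. The median differences of the 10 genes were 0.15 and -0.12. On the 3 shPhf5a arrays their median deviation from the shControl mean was 0.22, 0.05 and 0.21, so replicate 2 hardly differed. Apart from ND6 (9.67), they averaged 12.84 to 13.30, near the array maxima of 13.48 to 13.69. The 9 nuclear members over 12 had a median of -0.09 in shPhf5a. Whether signals this high respond less was not tested. All 10 were higher in shPhf5a than in shPaf1 by the direct test, where 20.7% of genes above the median level were. COX2, ATP6 and ATP8 were not among the genes tested. ND6, which is read from the other strand of the mitochondrial genome than the rest of these genes, was the widest apart, at -0.25 in shPhf5a (adjusted p = 0.165) and -1.85 in shPaf1.

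**Figure D5:**
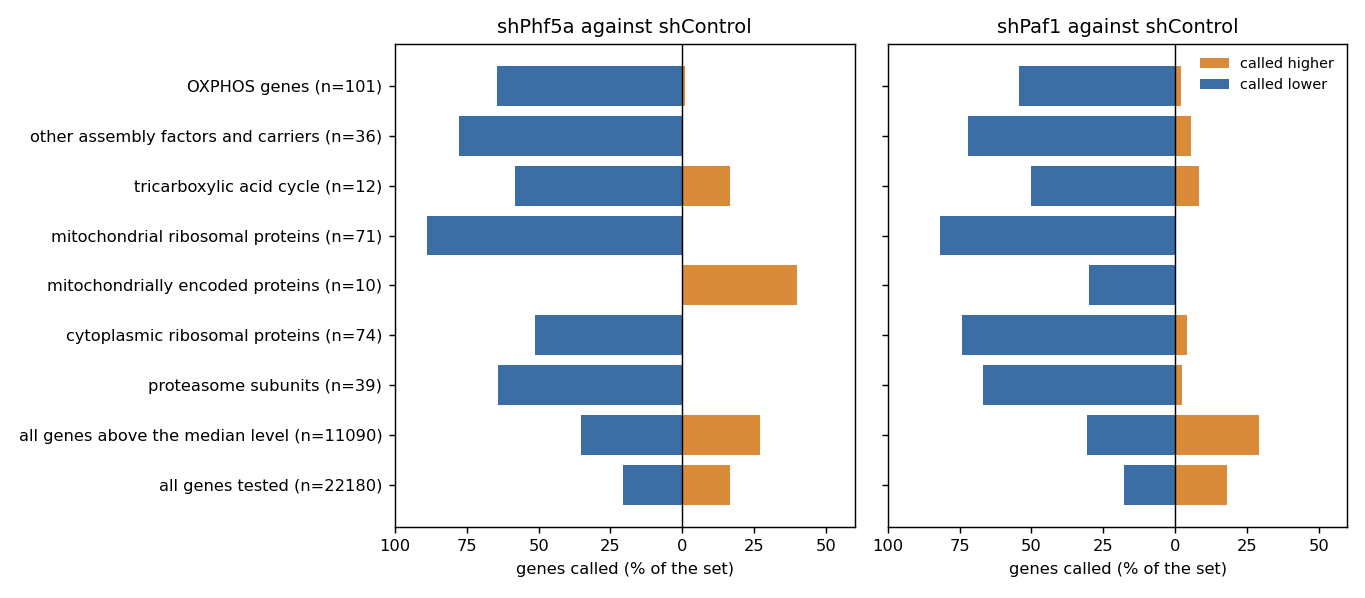
Bars give the percentage of each gene group called lower (blue, left of 0) and higher (orange, right of 0) at an adjusted p under 0.05, in shPhf5a against shControl (left panel) and in shPaf1 against shControl (right panel). OXPHOS genes (64.4% and 54.5% lower) exceed all genes above the median level (35.2% and 30.7%), mitochondrial ribosomal proteins (88.7% and 81.7%) exceed them, and mitochondrially encoded proteins include no lower gene in shPhf5a.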

How the data were processed

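The log2 expression values of 33793 probe sets were used as the authors deposited them; the log base, taken as 2 from the range of the values, and the software and normalization are not stated in the labels. Per the labels, 125 ng of total RNA was labelled with whole-transcript kits. Of the probe sets, 23521 had a single symbol in the platform annotation, 1814 had several and 8458 had no entry. Each of 22180 genes was represented by its probe set with the highest mean. limma 3.58.1 (lmFit and eBayes, R 4.3.3) fitted 1 mean per group over all 9 arrays, with Benjamini-Hochberg adjustment over all genes at 0.05, and was tested on simulated data. Members, classes and lists were chosen with earlier results of these data known. Named were the targets, the 8 largest called changes in either direction per knockdown, the 5 in the direct comparison, the extremes and the highest signal of each class, all tissue isoforms with their partners, and up to 4 called genes of each other list. Sdhb, Atp5d, Atp5g2, Atp5g3, Cox5b, Ndufa11, Ndufa12, Sdhaf1, Pet100, Cyc1, the marker genes and the mitochondrially encoded genes were added after their values were seen. No scan date or detection call was used, so no batch could be tested. The number of arrays limits the precision. The labels do not say that replicate numbers pair the arrays, and the main fit did not pair them. In all, 17 alternatives were run.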

Additional observations from a re-analysis of the deposited data

How the results depend on the processing

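Each of 303 results (101 members in 3 comparisons) was run under 17 alternatives: array weights, quantile normalization, a variance that was trended and robust, averaging probe sets, centring each array, keeping genes above the median level, using the 6 arrays compared alone, a replicate block, and leaving out each of the 9 arrays. Of the 5121 values that could be computed, 4802 kept direction and call, 181 lost a call, 137 gained one and 1 reversed: with the mean over its probe sets, Cox7b was at -0.22 in shPhf5a (adjusted p = 0.0114). Leaving out single arrays gave 54 to 67 members lower and 1 to 3 higher in shPhf5a, 43 to 64 lower in shPaf1, and 8 to 14 higher and 9 to 30 lower in shPhf5a against shPaf1. The 1 member higher in shPhf5a became 2 with a trended and robust variance and 4 with array weights, and the 2 higher in shPaf1 became 4 with quantile normalization. The median in shPaf1 was -0.34 among genes above the median level, a set with fewer members. With only the 6 arrays compared, 11 members were lower in shPhf5a than in shPaf1. The causes of these changes were not tested. With the replicate block, 63 members were lower in shPhf5a, 56 in shPaf1 and 14 in shPhf5a against shPaf1. Deviations from the group means correlated from -0.06 to 0.11 between same-numbered arrays and from -0.18 to 0.10 between others. With 3 arrays per group this cannot decide whether the numbers pair the arrays. Whether dim probe sets and the brightest ones respond less than others was not tested, and 3 arrays per group limit what can be shown.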

Other observations

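Of 18 regulators of mitochondrial biogenesis 7 (38.9%) were lower and 2 (11.1%) higher in shPhf5a, and 8 (44.4%) were lower and 3 (16.7%) higher in shPaf1. Among all genes above the median level 35.2% were lower and 26.9% higher in shPhf5a, and 30.7% were lower and 29.2% higher in shPaf1. Tfam, which packages mitochondrial DNA and starts its transcription, was at -0.89 in shPhf5a and -0.75 in shPaf1. Tfb1m, which methylates mitochondrial ribosomal RNA, was at -0.69 and -0.97, and Ssbp1, which binds single-stranded mitochondrial DNA, at -0.82 and -1.32. All 3 fell in both knockdowns. Polg, the catalytic subunit of the mitochondrial DNA polymerase, rose in shPaf1 (0.83, adjusted p = 2.2e-06) and was not called in shPhf5a (0.12, adjusted p = 0.086).

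Of 12 measured genes of the tricarboxylic acid cycle, 7 (58.3%) were lower and 2 higher in shPhf5a, and 6 (50%) were lower and 1 higher in shPaf1, against the same background. Idh3a, a subunit of the NAD-dependent isocitrate dehydrogenase, was at -0.76 and -1.09, and Fh1, fumarate hydratase, at -0.75 and -0.47, all called. Suclg1 fell in both knockdowns (-0.74 and -0.53), and Suclg2 fell more in shPaf1 (-0.32 and -0.92, difference of the knockdowns 0.61).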
